A study of Mus musculus with 16 samples.

Results

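A triplet of neighbouring CpGs near the downstream end of a LINE1 amplicon is described here, across mouse embryonic stem cells that were wild type or carried a defect in Uhrf1. In a copy of the amplicon whose first and last CpG lie 142 bp apart, the triplet stands 95, 102 and 105 bp from the first CpG along the strand of the calls, and its CpGs are called CpG +95, CpG +102 and CpG +105. The triplet was selected on measured values of these same libraries, namely the levels in the Uhrf1 knockout and in the H730A mutant, so that contrast is described below with no test. What a mutant retains is judged against wild type, so wild-type levels may have entered the choice too. Sites had to have at least 10 calls in all 16 libraries, and sites on 1 strand were joined into a copy where no gap exceeded 200 bp. The rule found 1481 CpG sites, of 10185 sites with that coverage and 49722 sites listed in any library. They were 487 sites at CpG +95, 494 at CpG +102 and 500 at CpG +105, in 516 of 753 copies. All 3 CpGs were members in 456 copies, which are called complete, a pair was in 53 copies and a single CpG in 7.

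UHRF1 reads hemimethylated CpGs behind the replication fork, attaches ubiquitin to histone H3 through its RING domain and so brings the maintenance methyltransferase DNMT1 to newly made DNA. Its ubiquitin-like (UBL) domain takes part in that ligase activity. LINE1 elements are retrotransposons that are kept silent in large part by CpG methylation, and because the genome holds very many copies, a single PCR reads many loci.

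The libraries came from mouse embryonic stem cells of the J1 (129S4/SvJae) background, all grown with serum, the 2i inhibitors and LIF. There were 4 libraries of each genotype, namely wild type (wtJ1), H730A, a point mutant in the RING domain, F46A, a point mutant in the UBL domain, and the knockout of Uhrf1 (Uhrf1 KO). Replicates are described as biological, without word in the sources used here on separate clones or cultures, so p-values measure the spread between these samples. After bisulfite treatment an unmethylated C is read as T, and the level of a CpG is the percentage of C among its C and T calls, pooled over the sites of a library unless stated otherwise. No part of Uhrf1 lies in the amplicon, and genotypes were therefore taken from the labels without a check in the reads.

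A library held 998982 to 1287040 calls, of which the triplet took 13.7 to 14.1%. A member site had a median of 62 to 79 calls per library, and the pooled level of a CpG in 1 library rested on 46991 to 59642 calls, with a 95% Wilson half-width of 0.143 to 0.408 percentage points. These are PCR reads without molecular identifiers, so such intervals cover counting error alone. Neighbouring CpGs of the triplet are read on the same molecules: the ratio of their calls within a complete copy had a median of 1 and ran from 0.997 to 1.003 between the 5th and 95th percentiles. Calls were concentrated, with 12.6% of the triplet's total in its 10 deepest copies and 54.3% in its 100 deepest. Chi-square tests of wtJ1 replicates 1 and 2 found no difference beyond sampling noise in calls per copy (p = 0.298) or in methylated calls at the triplet (p = 0.177). The pair was averaged as 1 sample in means and SDs, which leaves n = 3 for wtJ1. The same chi-square tests gave p = 0.303 and 0.945 for wtJ1 replicates 3 and 4, 0.122 and 0.280 for Uhrf1 KO replicates 2 and 3, and 0.0918 and 0.222 for Uhrf1 KO replicates 3 and 4. At the 11 other CpG positions of the copies the p for these pairs was 0.0968, 0.119 and 0.0806, so they too did not differ beyond sampling noise and may not be separate samples. They are counted apart in the values below, and the SDs and p-values of wtJ1 and Uhrf1 KO may thus be too small. With wtJ1 replicates 1 and 2, wtJ1 replicates 3 and 4 and Uhrf1 KO replicates 2 and 3 each averaged, an alternative added after seeing the data, no test of levels or steps passed (lowest adjusted p = 0.114 by exact permutation tests), and the smallest p that 2 samples against 4 allow is 0.133. The F46A libraries were the least alike, and the results that rest on 1 of them are given without it below.

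CpG +95 kept a similar share of its wild-type level in Uhrf1 KO and F46A and a somewhat larger one in H730A. In wtJ1 its level was 30.1, 29.6, 30.2 and 30.3% in replicates 1 to 4. Uhrf1 KO was at 8.28, 8.51, 8.49 and 8.34%, H730A at 10.2, 10.8, 11.4 and 9.47%, and F46A at 8.26, 8.54, 5.86 and 9.56%. No mutant library came near the wild-type range, every H730A library but replicate 4 lay above every other mutant library, and F46A replicate 3 was the lowest of all. The wtJ1 group was at 30.1% ± 0.249 (SD, n = 3), H730A at 10.5% ± 0.831, Uhrf1 KO at 8.40% ± 0.113 and F46A at 8.06% ± 1.56 (SD, n = 4). Relative to wtJ1, H730A thus kept 34.7%, Uhrf1 KO 27.9% and F46A 26.8%.

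CpG +102, 7 bp downstream, had the lowest wild-type level of the triplet. It stood at 24.2, 24.0, 25.0 and 25.0% in the wtJ1 libraries. In Uhrf1 KO it was 7.48, 7.65, 7.94 and 7.70%, in H730A 5.78, 5.96, 8.71 and 5.24%, and in F46A 7.17, 4.60, 6.69 and 8.01%. Of the H730A libraries 3 lay below every Uhrf1 KO library, and replicate 3 lay above all of them. The mutant groups overlapped one another, and none overlapped wtJ1. The mean was 24.7% ± 0.508 for wtJ1 (SD, n = 3), 7.69% ± 0.192 for Uhrf1 KO, 6.62% ± 1.45 for F46A and 6.42% ± 1.55 for H730A (SD, n = 4). Uhrf1 KO thus kept 31.2% of wild type, F46A 26.8% and H730A 26.02%.

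CpG +105, only 3 bp further, was the most methylated CpG of the triplet in wild type and separated the mutants. The wtJ1 libraries read 33.4, 32.96, 33.6 and 33.8%. Uhrf1 KO fell in a narrow band at 3.14, 3.19, 3.26 and 3.15%, while H730A was at 14.6, 14.7, 15.5 and 13.1%. F46A took values in between, at 6.63, 9.47, 4.67 and 9.01%. At this CpG no 2 genotypes overlapped in any library. Group means were 33.5% ± 0.343 for wtJ1 (SD, n = 3), 14.5% ± 0.994 for H730A, 7.45% ± 2.23 for F46A and 3.18% ± 0.0543 for Uhrf1 KO (SD, n = 4). The knockout thus kept 9.49% of the wild-type level, H730A 43.2% and F46A 22.2%.

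**Figure D1:**
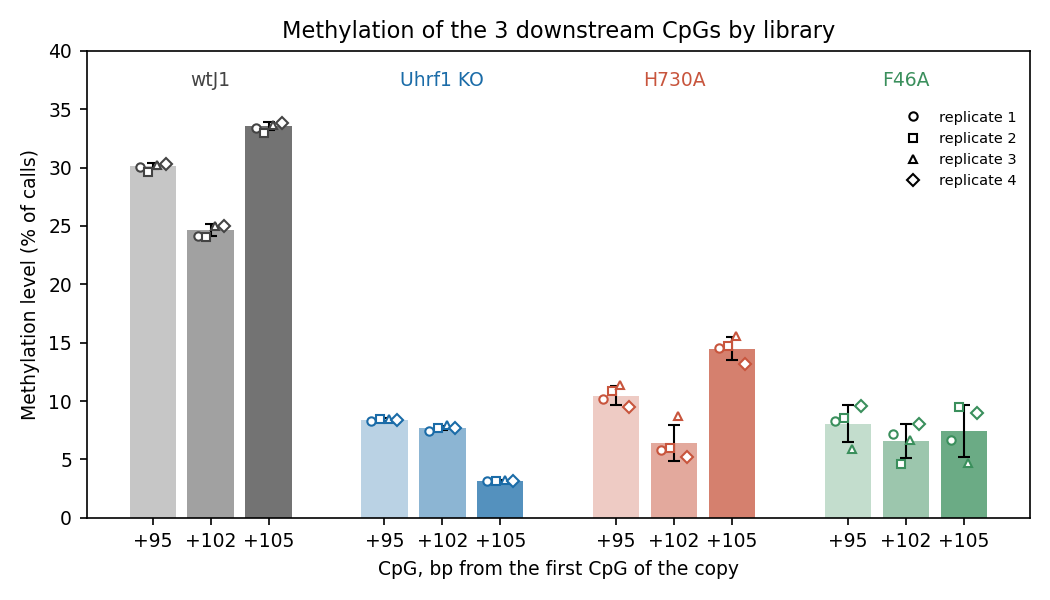
Methylation level in percent at CpG +95, CpG +102 and CpG +105, with 1 point per library, bars for the group mean and error bars of 1 SD (n = 3 for wtJ1, with replicates 1 and 2 averaged, and n = 4 otherwise). At CpG +105 the Uhrf1 KO points sit at 3.14 to 3.26%, the F46A points at 4.67 to 9.47% and the H730A points at 13.1 to 15.5%, while at CpG +95 F46A overlaps both other mutants and at CpG +102 all mutants overlap.

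Against wild type the triplet lost methylation in every mutant. The tests used the 4 libraries of each group, and their differences can depart slightly from those between the means above. At CpG +105 the difference from wtJ1 was -30.3 percentage points in Uhrf1 KO (95% interval -30.7 to -29.7), -18.9 in H730A (-20.7 to -17.4) and -26.0 in F46A (-29.1 to -23.5). At CpG +95 it was -21.6 points (-22.0 to -21.1), -19.6 (-20.8 to -18.2) and -22.0 (-24.4 to -20.02) in the same order. CpG +102 had the smallest wild-type level to lose, and its differences were -16.8 points (-17.5 to -16.1), -18.1 (-19.8 to -15.3) and -17.9 (-20.4 to -16.0). In each of these 9 comparisons all 4 mutant libraries lay below all wtJ1 libraries (p = 0.0286 in an exact two-sided permutation test, and 0.0286 after adjustment over the 9). The p of 0.0286 is the smallest that 4 against 4 allows, and with wtJ1 counted as 3 samples the smallest is 0.0571, which cannot pass 0.05. The Uhrf1 KO and H730A libraries of these tests are the ones whose levels led to the choice of the triplet. Neither the sizes of their losses nor their p-values are independent of that choice, and both are given as a description.

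Between Uhrf1 KO and H730A, the contrast behind the choice, the CpGs of the triplet differed in direction as well as size. H730A minus Uhrf1 KO was 2.06 points at CpG +95, -1.27 points at CpG +102 and 11.3 points at CpG +105. As a ratio of means H730A was 1.25-fold Uhrf1 KO at CpG +95, 0.835-fold at CpG +102 and 4.56-fold at CpG +105. The H730A libraries exceeded those of Uhrf1 KO without overlap at CpG +95 and CpG +105, but only 1 of 4 did at CpG +102. Without H730A replicate 3, the highest H730A library at each CpG, the differences were 1.75, -2.03 and 10.97 points.

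F46A was not used in the choice, although the groups it is set against here were. At CpG +105 each F46A library exceeded each Uhrf1 KO library, with a mean difference of 4.26 points (95% interval 1.41 to 6.33), and lay below each H730A library, with a mean difference of -7.05 points (-10.9 to -3.67). Each had an exact two-sided permutation p of 0.0286, and neither passed after adjustment over the 6 F46A comparisons (adjusted p = 0.0857). Leaving out F46A replicate 2 gave 3.59 and -7.73 points, and leaving out replicate 3 gave 5.19 and -6.13 points. At CpG +95, F46A minus Uhrf1 KO was -0.345 points (-2.64 to 1.28, exact permutation p = 0.800, adjusted p = 0.83), with F46A libraries on both sides of the knockout. Without F46A replicate 3 this difference changed sign, to 0.386 points. F46A minus H730A at the same CpG was -2.41 points (-5.52 to 0.0933, exact permutation p = 0.0571, adjusted p = 0.114), with 3 of 4 F46A libraries below every H730A library. At CpG +102, F46A differed from Uhrf1 KO by -1.08 points (-3.34 to 0.534, exact permutation p = 0.200, 0.3 when adjusted) and from H730A by 0.194 points (-4.11 to 2.77, exact permutation p = 0.83, adjusted p = 0.83). The interval against H730A leaves room for a difference of a few points in either direction, and the sign against H730A turned without H730A replicate 1 or 4 or F46A replicate 4 (-0.0207, -0.201 and -0.271 points).

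Because the triplet's CpGs share reads, the step from one to the next within a library compares them at like depth. A step in points can shrink as the level of a library falls, so ratios are given as well. The level at CpG +105 stood above that at CpG +102 by 8.85 ± 0.206 points in wtJ1 (SD, n = 3) and by 8.07 ± 0.935 points in H730A (SD, n = 4). In Uhrf1 KO the step had the opposite sign, -4.51 ± 0.146 points. The F46A libraries stood at -0.539, 4.87, -2.02 and 0.999 points, so 2 lay above 0 and 2 below, with a mean of 0.827 ± 2.96. These steps of Uhrf1 KO and H730A come from the levels that led to the choice of the triplet, so their differences from wtJ1, -13.4 and -0.829 points, are given as a description. Their tests were run and count among the 10 step comparisons adjusted for, but nothing is read from them. The step in F46A differed from that in wtJ1 by -8.08 points (95% interval -11.2 to -3.77), with no overlap of libraries (exact two-sided permutation p = 0.0286, adjusted p = 0.0408 over 10 step comparisons). F46A minus Uhrf1 KO was 5.34 points (2.32 to 9.56) and F46A minus H730A -7.25 points (-10.8 to -1.95), without overlap and with the same exact permutation p and adjusted p, but here the group F46A was set against had entered the choice. Since wtJ1 levels may have entered it as well, the test against wtJ1 may not be independent of the choice either. Without F46A replicate 2, the only F46A library with a step over 1 point, F46A differed by -9.42 points from wtJ1, 3.99 from Uhrf1 KO and -8.59 from H730A, each at an exact permutation p of 0.0571, the smallest for 3 against 4. H730A minus Uhrf1 KO, also a description, was 12.6 points. As a ratio, CpG +105 over CpG +102 was 1.36 ± 0.0154 in wtJ1 (SD, n = 3) and 2.32 ± 0.359 in H730A (SD, n = 4). It was 1.20 ± 0.597 in F46A and 0.414 ± 0.00526 in Uhrf1 KO (SD, n = 4). The F46A ratios, from 0.698 to 2.06, lay on both sides of those of wtJ1, at 1.35 to 1.38. The difference of F46A from wtJ1 is thus stated for the step in points alone, and the ratios were not tested. It did not pass with wtJ1 counted as 3 samples (exact permutation p = 0.0571) or with like libraries averaged.

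CpG +102 was below CpG +95 in the mean of each genotype. The step was -5.43 points in wtJ1, -4.04 in H730A, -1.44 in F46A and -0.707 in Uhrf1 KO. In Uhrf1 KO and H730A, whose levels entered the choice, it differed from wtJ1 by 4.79 and 1.46 points, as a description. In F46A it differed by 4.06 points (95% interval 1.30 to 6.74), with no overlap of libraries (exact two-sided permutation p = 0.0286, adjusted p = 0.0408). F46A differed from H730A by 2.60 points (-1.27 to 5.70, exact permutation p = 0.0571, adjusted p = 0.0714) and from Uhrf1 KO by -0.731 points (-3.39 to 1.67, exact permutation p = 0.600, adjusted p = 0.600). The last of these became 0.102 points without F46A replicate 2. As a ratio, CpG +102 over CpG +95 was 0.820 ± 0.0102 in wtJ1 (SD, n = 3) and 0.610 ± 0.104 in H730A (SD, n = 4). It was 0.846 ± 0.246 in F46A and 0.916 ± 0.0170 in Uhrf1 KO (SD, n = 4). The F46A ratios, from 0.539 to 1.14, lay on both sides of those of wtJ1, at 0.803 to 0.827. Those of H730A, at 0.550 to 0.765, lay below wtJ1. With wtJ1 counted as 3 samples, the step of F46A against wtJ1 had an exact permutation p of 0.0571. That difference in points is not read as a change beyond the lower level of F46A, and the ratios were not tested.

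**Figure D2:**
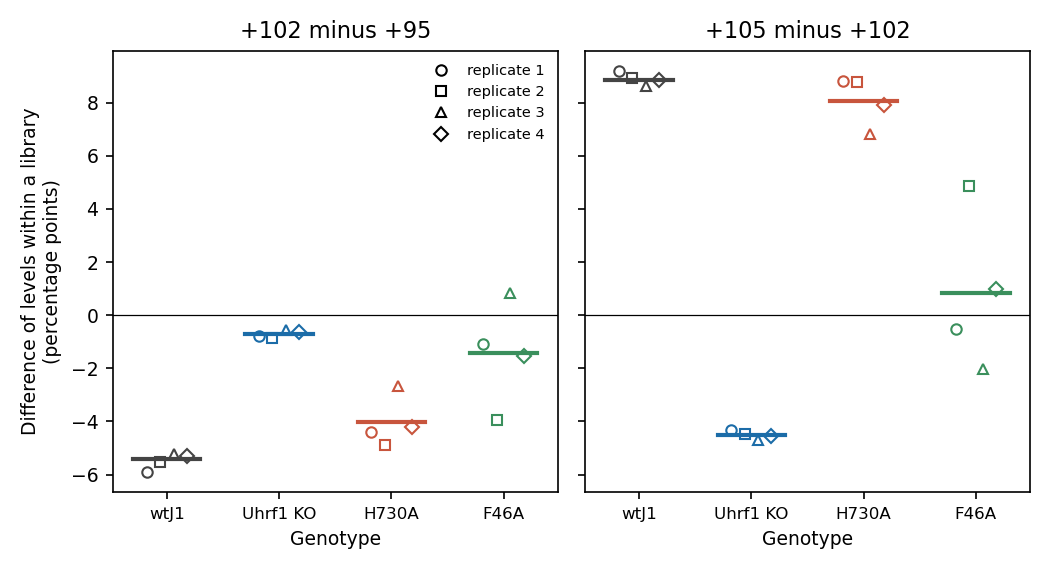
Step in methylation level within a library, in percentage points, from CpG +95 to CpG +102 and from CpG +102 to CpG +105, with 1 point per library and a bar at the group mean (n = 3 for wtJ1, n = 4 otherwise). The step to CpG +105 lies above 0 in wtJ1 and H730A, near -4.51 in Uhrf1 KO, and on both sides of 0 in F46A, from -2.02 to 4.87 points.

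The side of CpG +105 on which CpG +102 lay was the same in nearly all copies within each of wtJ1, H730A and Uhrf1 KO, and mixed in F46A. For the 456 complete copies calls were summed over the libraries of a genotype. CpG +105 was above CpG +102 in 442 copies in wtJ1, 454 in H730A, 270 in F46A and 8 in Uhrf1 KO. It was the highest of the 3 in 349 copies in wtJ1 and 407 in H730A, but in 115 in F46A and 3 in Uhrf1 KO. It was the lowest of the 3 in 441 copies of Uhrf1 KO, against 129 in F46A, 7 in wtJ1 and 1 in H730A. CpG +102 and CpG +95 were less regularly ordered, with CpG +102 above CpG +95 in 74 copies in wtJ1, 26 in H730A, 131 in F46A and 182 in Uhrf1 KO. CpG +95 was the highest of the 3 in 223 copies in F46A and 261 in Uhrf1 KO, where CpG +102 was the highest in 181. The median step from CpG +102 to CpG +105 in a copy was 8.61 points in wtJ1, 7.78 in H730A, 0.599 in F46A and -4.50 in Uhrf1 KO. Counted library by library, with fewer calls behind each copy, the share of copies with CpG +105 above CpG +102 was 85.8% ± 0.335 in wtJ1 (SD, n = 3), 91.0% ± 2.03 in H730A and 6.96% ± 0.954 in Uhrf1 KO (SD, n = 4). In F46A it was 40.4, 77.9, 21.9 and 52.4% in replicates 1 to 4, a spread of 23.4 (SD, n = 4), so F46A libraries differed from one another in this order more than libraries of any other genotype. The copies of a library are no replicates of a genotype, and these counts were given no test.

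**Figure D3:**
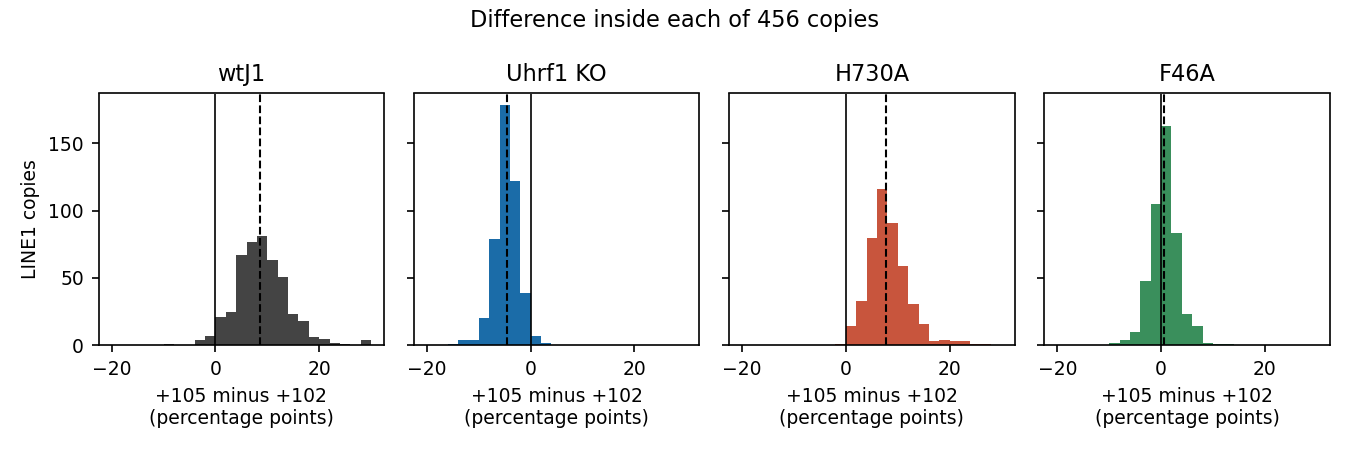
Number of complete copies (456 in all) by the difference of levels CpG +105 minus CpG +102 inside the copy, in percentage points, in 1 panel per genotype with calls summed over its 4 libraries; the dashed line is the median, the solid line is 0 and values beyond the axis stand in the outermost bars. The medians are 8.61 in wtJ1, 7.78 in H730A, 0.599 in F46A and -4.50 in Uhrf1 KO.

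Differences between genotypes inside the complete copies followed the pooled ones, which are made up largely of the same calls. H730A against Uhrf1 KO is the contrast behind the choice, so its counts are a description. At CpG +105 H730A was above Uhrf1 KO in 455 of 456 copies, with a median difference of 11.1 points and quartiles of 8.87 and 13.7. At CpG +102 it was above in 131 and below in 324, with a median of -1.34 points, and at CpG +95 above in 351 and below in 104, with a median of 2.05 points. F46A was above Uhrf1 KO at CpG +105 in 437 copies and below H730A in 443, with medians of 4.16 and -7.06 points. At CpG +95 and CpG +102 F46A was below Uhrf1 KO in 265 and 323 copies. All 456 copies were below wtJ1 at each CpG in each mutant.

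Seen along the copy, the triplet did not stand out in wild type. Of the 14 CpG positions in these copies, CpG +105 had the highest level in H730A and was 5th in F46A and 7th in Uhrf1 KO. In wtJ1 its 33.5% ± 0.343 was not apart from 33.3% ± 0.371 at 41 bp and 32.99% ± 0.527 at 57 bp (SD, n = 3). CpG +95 ranked 5th in wtJ1, 4th in Uhrf1 KO and 2nd in H730A. CpG +102 ranked 8th in wtJ1, 5th in Uhrf1 KO and 8th in H730A. The CpG 142 bp from the first, next downstream of the triplet, was at 27.2% ± 0.465 in wtJ1 (SD, n = 3), 4.71% ± 1.16 in H730A, 2.73% ± 0.102 in Uhrf1 KO and 2.64% ± 0.322 in F46A (SD, n = 4), a ratio of H730A to Uhrf1 KO of 1.73. Upstream, the CpG at 82 bp was at 31.6, 9.45, 12.01 and 9.97% in the same order, a ratio of 0.786. The ratio at CpG +105, 4.56, was exceeded at the CpGs at 0 and 26 bp, with 6.88 and 6.48, where Uhrf1 KO was at 1.08 and 0.929%. In absolute terms H730A minus Uhrf1 KO was larger at CpG +105 than at any other position. The other 4843 CpG sites of the same copies, pooled, were at 24.7% in wtJ1, 6.85% in H730A, 4.94% in F46A and 4.64% in Uhrf1 KO. In Uhrf1 KO, CpG +95 and CpG +102 were above that pool and CpG +105 below it. In the mean of H730A CpG +95 and CpG +105 were above it and CpG +102 below. In H730A replicate 3, however, CpG +102 was above it, at 8.71% against 7.97%.

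**Figure D4:**
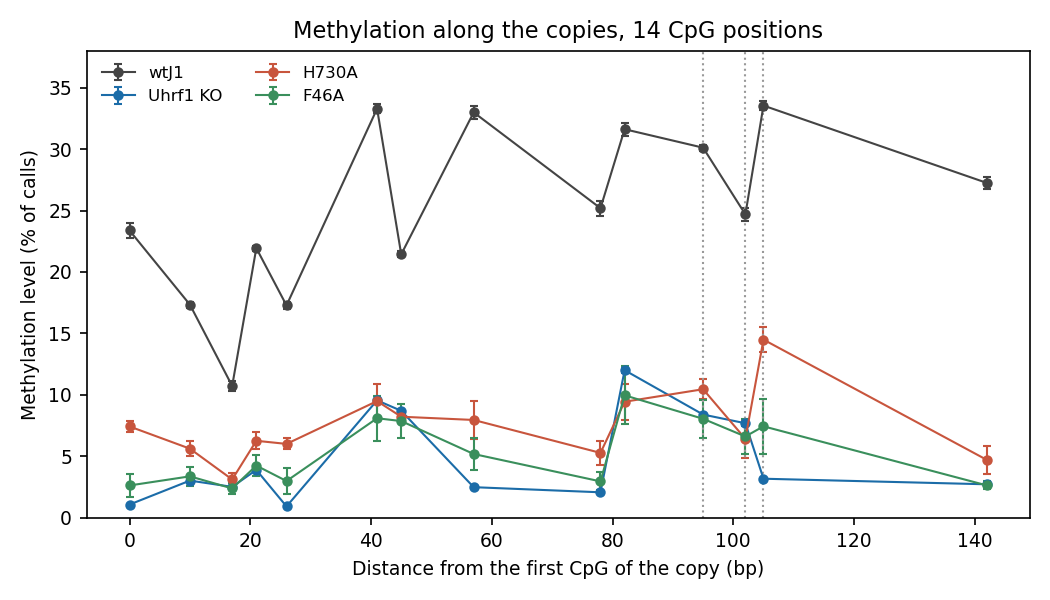
Methylation level in percent at the 14 CpG positions of the copies, by distance in bp from the first CpG, as group means with SD (n = 3 for wtJ1, n = 4 otherwise), with dotted lines at the triplet. Within 10 bp the Uhrf1 KO line goes from 8.40 to 7.69 to 3.18% and the H730A line from 10.5 to 6.42 to 14.5%.

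Site by site, all 10185 sites were fitted with a quasi-binomial model whose dispersion was moderated by limma, and a site was called at a Benjamini-Hochberg adjusted p under 0.05. In Uhrf1 KO 1452 of the 1481 members were called lower than wtJ1 (479, 475 and 498 at CpG +95, +102 and +105), where 94.2% of all tested sites were called. In H730A 1407 were called lower (463, 477 and 467), against 91.4% of all tested sites, and in F46A 1462 (479, 485 and 498), against 94.5%. These shares lie near the background, and the members are not set apart by being called. None of the members was called higher than wtJ1 in any mutant, by this model or by the others run, and none had an unadjusted p under 0.05 in that direction. Of all tested sites 0% were called higher for Uhrf1 KO, 0.0196% for H730A and 0.0196% for F46A. The median difference of a member from wtJ1 was -22.0 points for Uhrf1 KO, -18.7 for H730A and -21.6 for F46A, against -19.96, -17.5 and -19.7 over all tested sites. By CpG it was -30.2 points at CpG +105 in Uhrf1 KO and -16.8 at CpG +102.

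Between F46A and H730A the model called 66 members lower in F46A, 62 of them at CpG +105, 4 at CpG +95 and 0 at CpG +102, where 11 had an unadjusted p under 0.05. Over all tested sites 2.39% were called lower. At CpG +105 this is 12.4% of its 500 sites, and the median difference was -6.94 points, against -1.88 over all tested sites. The H730A levels entered the choice of the triplet, so this distance from all tested sites is not independent of that choice. The count rests on single libraries: it was 0 without H730A replicate 1, 2 or 3 and without F46A replicate 1 or 3, and at most 47 without any other. It was also 0 by limma on logit values and with the replicate number as a block, 165 with a minimum of 30 calls, 167 in 1 fit of all 16 libraries and 311 by Fisher's exact test of pooled calls, which holds no spread between samples. For these other settings the shares of all tested sites are not given here, so nothing is read from them about the members. A single member was called higher in F46A than in H730A, chr2:11122086 at CpG +102 (mm10, outside annotated genes, named after its values were seen), against 0.00982% of all tested sites. It was at 28.99% ± 3.96 in wtJ1 (SD, n = 3). H730A had 3.64% ± 0.752 there, F46A 11.1% ± 3.11 and Uhrf1 KO 9.15% ± 0.421 (SD, n = 4). It had 108 to 141 calls in a library, and was called in no fit that left out 1 library.

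Between F46A and Uhrf1 KO no member was called in either direction, and neither was any other site (0% higher and 0% lower). An unadjusted p under 0.05 in the quasi-binomial model with limma was found for 245 members that were higher in F46A, 239 of them at CpG +105, and for 24 that were lower, none of them at CpG +105. The other tools called 0 by limma on logit values, 71 higher in 1 fit of all 16 libraries, 89 higher with a minimum of 30 calls, and 164 higher and 2 lower by Fisher's exact test. For these counts and for the unadjusted p the shares of all tested sites are not given here. Nothing is therefore read from them about the members. The median difference was 4.17 points at CpG +105, -0.456 at CpG +95 and -1.07 at CpG +102, and 0.469 over all tested sites. The Uhrf1 KO levels entered the choice of the triplet, so these values are not independent of that choice either.

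For the contrast behind the choice, H730A against Uhrf1 KO, 436 members were called higher in H730A (21, 2 and 413 at CpG +95, +102 and +105), where 21.4% of all tested sites were, and 4 lower, all at CpG +102, where 0.785% were. These counts describe the choice and nothing is read from them. The 2 sites called higher at CpG +102, named after their values were seen, were chr3:81712222 (5.66% ± 3.60 in Uhrf1 KO and 15.9% ± 2.05 in H730A) and chr6:16391529 (2.27% ± 0.716 and 10.1% ± 7.07). Of the 4 lower, also named after their values were seen, 1 was chr2:11122086, given above, and others were chr9:52385110 (11.8% ± 1.37 and 3.50% ± 2.47) and chr3:67787344 (17.4% ± 3.65 and 4.30% ± 3.55; SD, n = 4). The fourth lies on chromosome 18 and is not named.

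At CpG +105, 33 of 500 sites were not called lower than wtJ1 in H730A, against 2 each in Uhrf1 KO and F46A, the latter named with their values already known. The share called lower was 93.4% in H730A, against 91.4% of all tested sites. In Uhrf1 KO and F46A it was 99.6% each, against 94.2 and 94.5% of all tested sites. The H730A share lies near the background, and nothing is read from its count. In Uhrf1 KO the 2 sites were chr14:26704667, in the span of Dnah12, a dynein heavy chain gene, and chr9:87161566, in the span of Mrap2, which encodes a melanocortin receptor accessory protein. The first was at 9.67% ± 3.35 in wtJ1 (SD, n = 3) and 2.92% ± 4.16 in Uhrf1 KO (SD, n = 4), with an adjusted p of 0.0661 in the quasi-binomial model with limma. The second had almost no methylation to lose, at 1.10% ± 1.90 in wtJ1, and had 0 methylated calls in the mutant libraries, which for the calls summed over a genotype allows a level of up to 1.41, 1.39 and 1.52% in Uhrf1 KO, H730A and F46A. In F46A the 2 sites were the same chr9:87161566 and chr13:4982601 (21.4% ± 4.36 in wtJ1, 11.5% ± 6.44 in F46A, adjusted p = 0.0670 in the same model).

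Copies differed widely in how methylated the triplet was in wild type, and in absolute points less in the knockout at CpG +105. Over the 500 sites the wtJ1 level at CpG +105 ran from 1.71 to 72.1%, with quartiles of 29.6 and 37.6%, and 16 sites were over 50%. In Uhrf1 KO the quartiles were 2.37 and 3.89% and the highest site was at 11.2%, in H730A they were 11.6 and 17.1% with a highest site of 43.3%, and in F46A 5.88 and 8.75% with a highest site of 21.5%. At CpG +102 the Uhrf1 KO quartiles were 6.39 and 8.92% and those of H730A 5.09 and 7.79%. Across the 456 complete copies, levels at CpG +95 and CpG +105 had a Spearman rho of 0.795 in wtJ1, 0.635 in H730A, 0.462 in F46A and 0.284 in Uhrf1 KO (Pearson r 0.850, 0.773, 0.558 and 0.323). These are descriptions across copies, which share libraries and reads, and levels near 0 carry relatively more counting error.

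The share of the wild-type level that each CpG kept was set against how methylated the copy was elsewhere. Copies were divided into 4 classes of 129 by the wtJ1 level of their other CpGs, from 9.14 to 21.9% in the lowest class and from 27.2 to 57.3% in the highest. Between these end classes the wtJ1 level at CpG +105 went from 27.2 to 41.3%. At CpG +105 Uhrf1 KO kept 10.4, 9.47, 9.46 and 9.12% of wild type over the classes, H730A 43.4, 43.3, 43.3 and 44.5%, and F46A 23.5, 22.0, 21.9 and 22.6%. The level itself went from 11.8% ± 1.07 to 18.4% ± 1.40 in H730A and from 2.82% ± 0.112 to 3.77% ± 0.336 in Uhrf1 KO (SD, n = 4). The kept share at CpG +95 in Uhrf1 KO went from 31.9% in the lowest class to 25.1% in the highest, and at CpG +102 from 34.6 to 28.4%.

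**Figure D5:**
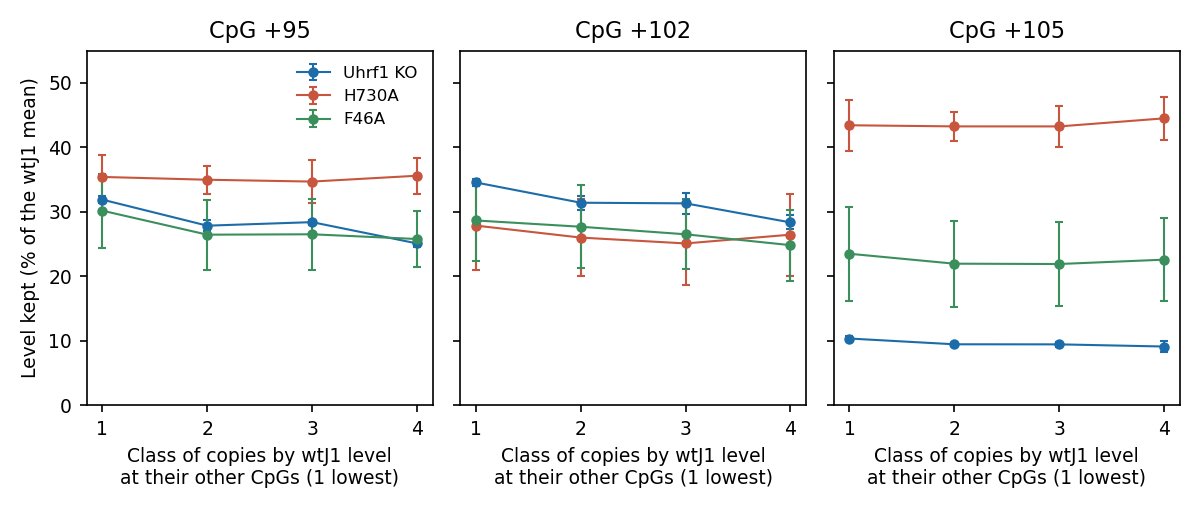
Share of the wtJ1 level kept at each CpG of the triplet, in percent, over 4 classes of copies ordered by the wtJ1 level of their other CpGs, with 1 line per mutant and bars of 1 SD over libraries (n = 4). At CpG +105 the 3 lines are apart in each of the 4 classes, at 9.12 to 10.4% in Uhrf1 KO, 21.9 to 23.5% in F46A and 43.3 to 44.5% in H730A.

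Location and strand made little difference to these shares. Of the 516 copies 137 lay in the span of a protein-coding or lncRNA gene and 379 outside, 72 were on the X chromosome, and 283 were read on the plus and 233 on the minus strand, over 20 chromosomes. At CpG +105 Uhrf1 KO kept 9.61% of wild type in genes and 9.44% outside, H730A 43.1 and 43.3%, and F46A 21.8 and 22.4%. On the X chromosome the shares were 9.45, 43.8 and 22.5%, against 9.49, 43.2 and 22.2% on autosomes. On the plus strand they were 9.55, 43.7 and 22.5%, and on the minus strand 9.41, 42.6 and 21.8%. In the 22 CpG +105 sites of copies in which CpG +102 was not tested, wtJ1 was at 28.4% ± 1.01 (SD, n = 3), H730A at 12.1% ± 1.60, F46A at 7.04% ± 1.96 and Uhrf1 KO at 3.67% ± 0.305 (SD, n = 4).

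LINE1 copies are nearly identical in sequence, and the sources used here do not say how reads matching several of them were placed, so the link of a value to 1 copy or host gene is uncertain. Positions are in mm10, and host genes were assigned by span without exons or introns. The copy with the most calls, chr2:42083590-42083732, lies in Lrp1b, a gene of the lipoprotein receptor family. Its CpG +105, from 1762 to 2354 calls per library, was at 32.6% ± 0.381 in wtJ1 (SD, n = 3), 13.8% ± 1.02 in H730A, 7.11% ± 2.60 in F46A and 2.87% ± 0.551 in Uhrf1 KO (SD, n = 4). In the same order its CpG +102 was at 23.9, 6.04, 6.21 and 7.63% and its CpG +95 at 29.2, 9.97, 7.88 and 7.76%. As in the pool, H730A was the highest mutant at CpG +95 and CpG +105 and the lowest at CpG +102. F46A minus H730A at its CpG +105 was -6.65 points (adjusted p = 0.0315, quasi-binomial model with limma). As with every such call, it was lost by limma on logit values, with the replicate block and in fits without 1 of several libraries. The copies at chr1:18538024-18538166, chr4:122712883-122713025 and chr4:90980423-90980565, all outside genes, came next in calls. Their CpG +105 levels in wtJ1 were 28.7% ± 1.57, 29.8% ± 2.84 and 30.5% ± 2.45 (SD, n = 3). In Uhrf1 KO they were 2.48, 2.96 and 3.04%, in H730A 10.7, 14.2 and 13.5%, and in F46A 5.64, 7.62 and 6.44%.

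Other deeply covered copies in genes gave similar values at CpG +105. The copy chr17:81683974-81684116 in Slc8a1, a sodium-calcium exchanger gene, had CpG +105 at 35.9% ± 0.350 in wtJ1 (SD, n = 3), 15.3% ± 1.00 in H730A, 7.41% ± 2.04 in F46A and 4.01% ± 1.29 in Uhrf1 KO (SD, n = 4). Here F46A was called lower than H730A by -7.90 points (adjusted p = 0.0247, quasi-binomial model with limma). Like the call in Lrp1b, it was lost by limma on logit values, with the replicate block and in fits without 1 of several libraries. In the copy chr13:74705918-74706060 in Cast, which encodes the calpain inhibitor calpastatin, CpG +105 was at 27.1, 12.4, 7.60 and 2.30% in the same order, and F46A minus H730A, at -4.70 points, did not pass (adjusted p = 0.103 in the same model). The X-linked copy chrX:6572501-6572643 lies in Shroom4, which encodes an actin-binding protein, and had 29.3, 12.6, 8.06 and 3.04% at CpG +105, where F46A minus H730A was -4.67 points and did not pass either (adjusted p = 0.125 in that limma model). At CpG +102, H730A minus Uhrf1 KO was -1.80, -1.85 and -2.58 points in these 3 copies, on summed calls. The same difference at CpG +95 was 1.14, -0.487 and -0.386 points, so the copies in Cast and Shroom4 differed in sign from the pool.

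The copies with the largest and smallest H730A minus Uhrf1 KO at CpG +105 are given as a description of the choice, among 347 complete copies with at least 30 calls at each CpG in every library and none on chromosome 18. In all 347 H730A was above Uhrf1 KO at CpG +105, with a median of 10.9 points. The largest differences were at chr2:23939133-23939275, chr1:150233137-150233279 and chr2:23938188-23938330, all outside genes and highly methylated in wild type. At CpG +105 they were at 58.8% ± 2.82, 73.4% ± 4.87 and 58.4% ± 2.58 in wtJ1 (SD, n = 3), 5.22, 2.92 and 6.88% in Uhrf1 KO and 42.8, 40.2 and 41.8% in H730A. At the pair on chromosome 2, CpG +95 was also far apart, at 13.6 and 20.7% in Uhrf1 KO and 46.04 and 45.05% in H730A, while CpG +102 was at 19.2 and 22.7% against 23.5 and 23.9%. Among the smallest were those at chr10:66072980-66073122 and at chr1:7334836-7334978 in the lncRNA gene Gm26901. There CpG +105 was at 26.5 and 22.9% in wtJ1, 3.42 and 2.17% in Uhrf1 KO and 4.42 and 3.47% in H730A. In both copies H730A lay below Uhrf1 KO at CpG +95 and at CpG +102, with 3.02 and 2.97% against 6.99 and 5.36% at CpG +95.

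A pair of sites is given from the largest called differences of F46A from H730A with no overlap of libraries. At chr1:150233242, CpG +105 of a copy named above, H730A was at 40.2% ± 7.22 and F46A at 8.20% ± 4.87, a difference of -32.2 points (SD, n = 4; adjusted p = 0.0247, quasi-binomial model with limma). The other, chr2:23940173, is a CpG +95, where H730A was at 49.2% ± 3.39 and F46A at 24.0% ± 5.64 (-25.5 points, adjusted p = 0.0318 in the same limma model). Site differences use calls summed over 4 libraries and need not equal the difference of the means.

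Just inside and just outside the limits of the rule there were few sites. Members whose lowest coverage was 10 or 11 calls numbered 9, 9 and 8 at CpG +95, +102 and +105, and at CpG +105 their calls gave 31.6% in wtJ1, 17.8% in H730A, 6.94% in F46A and 3.71% in Uhrf1 KO. A single site of the same copies fell just short, a CpG +95 with a lowest coverage of 8 or 9 calls, at 29.1, 14.5, 10.0 and 4.55% in that order. Copies whose span was 1 bp off held 5 sites at these positions, in 3 copies with a span of 141 bp. The 3 of them at CpG +95 were at 20.1, 5.73, 4.90 and 5.91%, lower in each genotype than the members. The single one at CpG +102 was at 30.4, 3.70, 6.49 and 2.60%, and the single one at CpG +105 at 31.9, 16.7, 2.60 and 7.79%, with F46A below Uhrf1 KO. The last 2 values rest on 77 calls per genotype, summed over its libraries.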

How the data were processed

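Bisulfite-converted genomic DNA was amplified with LINE1 primers and sequenced, per the labels' protocols. The deposited counts give, per CpG site and library, the calls read as C and the calls read as C or T, and the deposited ratio, a fraction, is the first count over the second, per the file headers. The submitters' processing notes name mm10, BSMAP 2.90, Trim Galore 0.3.1 and methylKit, and give no roles. With CpG sites only in the files, bisulfite conversion could not be estimated. Counts were used as deposited. Total calls per library were 998982 to 1287040.

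The members, the lists and the tests were chosen with earlier results of these data known. Pooled levels and steps were compared by exact two-sided permutation tests with Benjamini-Hochberg adjustment within 3 families (9, 6 and 10 comparisons), and 95% intervals come from inverting the test. Contrasts with wtJ1 share its libraries, and those of F46A share the Uhrf1 KO and H730A libraries. The site model was quasi-binomial on the 8 libraries of a comparison, with Pearson dispersion moderated by limma 3.58.1 in R 4.3.3 and not below 1, fitted to all 10185 sites. It and the permutation test were tested on simulated data. Other steps used Python 3.11.15 with NumPy 2.4.6, SciPy 1.17.1 and pandas 2.3.3. Named copies were the 4 with the most calls, up to 4 with the most calls in a named protein-coding gene, the 3 largest and 3 smallest H730A minus Uhrf1 KO differences at CpG +105, and up to 3 called sites per F46A contrast with at least 30 calls and no overlap, none on chromosome 18; F46A against Uhrf1 KO gave none, and some of the places so chosen are not reported here. Host genes were looked up by span in RefSeq's table for GRCm38.p6. Replicate numbers were checked for pairing. Alternatives were minimums of 30 and 100 calls, unweighted means, complete copies, removal of the 10 deepest copies, single strands, spans within 1 bp, thinning to 10 calls, each replicate left out, a replicate block, wtJ1 counted as 3 samples, like libraries averaged (added after seeing the data), limma on logit values (offset 0.5 calls), Fisher's exact test and 1 fit of all 16 libraries.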

Additional observations from a re-analysis of the deposited data

How the results depend on the processing

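The differences from wtJ1 and the steps held their direction under every minimum, weighting, strand, span and thinning tried, and their p rose where fewer samples set a larger smallest value. With wtJ1 counted as 3 samples (smallest exact p 0.0571) the differences from it were, for Uhrf1 KO, H730A and F46A, -21.7, -19.6 and -22.1 at CpG +95, -17.0, -18.3 and -18.1 at CpG +102, and -30.4, -19.0 and -26.1 at CpG +105. The step to CpG +102 then differed from wtJ1 by 4.72, 1.39 and 3.99 points, and the step to CpG +105 by -13.4 in Uhrf1 KO and -8.02 in F46A. With like libraries averaged, the alternative added after seeing the data (2 wtJ1 and 3 Uhrf1 KO samples), they were -21.7, -19.6 and -22.0 at CpG +95, -16.9, -18.1 and -17.9 at CpG +102, and -30.3, -18.9 and -26.0 at CpG +105, 4.79, 1.46 and 4.06 for the step to CpG +102, -13.4 in Uhrf1 KO and -8.08 in F46A for the step to CpG +105, and 5.32 there for F46A against Uhrf1 KO; none passed, and the site model was not refitted. Same-numbered libraries did not deviate together (correlations of -0.0589 to 0.0648 over 24 pairs, none over 0.1, and 7 of 16 libraries closest to their own number), so the numbers do not pair the samples. With the replicate block the smallest sign-flip p is 0.125, so no difference could pass, and the values were -21.6, -19.6 and -22.0 at CpG +95, -16.8, -18.1 and -17.9 at CpG +102, and -30.3, -18.9 and -26.0 at CpG +105 against wtJ1, 4.79, 1.46 and 4.06 for the step to CpG +102, -13.4 and -8.08 (Uhrf1 KO and F46A) for the step to CpG +105, and 5.34 and -7.25 for F46A against Uhrf1 KO and H730A. The H730A difference from wtJ1 in the step to CpG +105 passed at a minimum of 100 calls (-1.12 points) and on the plus strand (-1.02). Its difference in the step to CpG +102 no longer passed on the minus strand (1.24). The cause was not tested, and since H730A levels entered the choice, nothing is read from these passes. Of the site counts, members lower in F46A than in H730A numbered 0 with the replicate block and by limma, 167 in 1 fit of all libraries, 165 with 30 calls and 311 by Fisher's exact test, against 66 in the model as reported, and members higher 0, 0 and 6 (replicate block, limma, Fisher) against 1. For F46A against Uhrf1 KO, 71, 89 and 164 were higher (1 fit of all libraries, 30 calls, Fisher) and 2 lower (Fisher), against 0. For H730A against Uhrf1 KO the replicate block called 0 higher and 0 lower, with 478 at an unadjusted p under 0.05, and the counts lower were 12, 16 and 30 (1 fit of all libraries, 30 calls, Fisher) against 4. The minimum of 30 calls leaves 1159 members and fewer tests to adjust for. The cause of the other shifts was not tested, and the shares of all tested sites under these settings are not given here. Leaving out 1 library gave differences from wtJ1 of -21.8 to -21.6, -19.9 to -19.2 and -22.5 to -21.3 at CpG +95, -17.0 to -16.7, -18.9 to -17.7 and -18.4 to -17.2 at CpG +102, and -30.4 to -30.1, -19.3 to -18.5 and -26.7 to -25.1 at CpG +105, with an exact p of 0.0571, the smallest for 3 against 4. The step to CpG +102 ranged over 4.66 to 4.88, 1.01 to 1.74 and 3.31 to 4.90 points against wtJ1, and the step to CpG +105 over -13.5 to -13.3 in Uhrf1 KO and -9.42 to -7.13, 3.99 to 6.29 and -8.59 to -6.30 for F46A against wtJ1, Uhrf1 KO and H730A. The sign turned in 5 cases, all of F46A and none past a threshold: at CpG +95 against Uhrf1 KO (range -0.846 to 0.386, 0.386 without F46A replicate 3), at CpG +102 against H730A (range -0.271 to 0.956, with -0.0207, -0.201 and -0.271 without H730A replicate 1, H730A replicate 4 and F46A replicate 4) and in the step to CpG +102 against Uhrf1 KO (range -1.49 to 0.102, 0.102 without F46A replicate 2). Site counts without 1 library ranged over 0 to 12 higher for F46A against Uhrf1 KO, 0 to 47 lower and 0 to 0 higher for F46A against H730A, and 1 to 12 lower for H730A against Uhrf1 KO. In all, 330 of 395 values under other settings kept direction and side of the threshold (or moved little), and 179 of 336 with 1 library left out did. Of those with 1 library left out 128 no longer passed, 24 moved and 5 turned. Depth limits single sites most: at 10 calls a level moves in steps of 10 percentage points, while a pooled level rests on at least 46991 calls.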
